A study of Mus musculus with 10 samples.

Results

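The matricellular glycoproteins are secreted proteins that sit in the extracellular matrix without building its load-bearing fibers. They bind collagens, growth factors and cell-surface receptors such as integrins, and they are known to accumulate where tissue is injured or remodeled. In skeletal muscle they are made mainly by fibroblasts, tendon cells, macrophages and regenerating muscle fibers. Here 10 of these genes, chosen by name, were followed among the 54232 genes of the table: Postn, Tnc, Tnxb, Thbs1, Thbs2, Thbs3, Sparc, Spp1, Tgfbi and Fbln2. All 10 were found and all 10 lay above the limit for testing, as did 14289 genes in total.

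RNA had been sequenced from the gastrocnemius muscle, taken with the neighbouring plantaris, of mice at 3 months of age. The desmin knock-out mice (5 mice, genotype Des -/-) were homozygous for the Destm1Cba allele and were compared with wild-type littermates (5 mice, genotype Des wt/wt). All 10 mice carried the strain name B6J.129Sv-Destm1Cba/Cscl. The knock-out is constitutive, so desmin was missing from each cell type that uses it and not from muscle fibers alone. The methods speak of pooled RNA, but the table holds every mouse in its own column, and a mouse is counted as 1 replicate here. Values are regularized log (rlog) values of DESeq2, that is log2 values adjusted for library size in which genes with few reads are pulled to their average. Differences on this scale are smaller than log2 fold changes of counts, and the sequencing depth is unknown. All 10 listed markers of skeletal muscle, among them Acta1 and Ckm, were above the limit for testing. Des itself was at 16.58 ± 0.67 in the wild-type and at 11.84 ± 0.06 in the knock-out mice (SD, n = 5 each). Wild-type mouse 3 stood apart, with a mean correlation of 0.982 with its own genotype against 0.989 to 0.997 for the other mice. Its summed level over all tested genes (2 to the power of the rlog value) was 1.48 times the median of the mice. Results that change without it are given below for the 10 genes and for the lists of relatives, receptors, matrix partners and TGF-β genes. The cell type marker lists were not refitted without it.

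Of the 10 genes, 4 rose in desmin knock-out muscle, 1 fell and 5 did not pass the test (limma, adjusted p under 0.05 over all tested genes). Those that rose were Postn, Spp1, Tnc and Thbs2, and the gene that fell was Tnxb. Over all tested genes, 13.7% were called in either direction, 7.70% as higher and 5.99% as lower. The median difference of the 10 genes was 0.51 on the log2 scale, whereas it was -0.0029 over all tested genes. In 3 of the 10 genes the 2 genotypes did not overlap, as in 14.4% of tested genes. Postn and Spp1 lay wholly above wild-type (7.45% of tested genes) and Tnxb wholly below (6.97%). None of the 10 genes lies on chromosome 1, which carries Des. In muscle tissue, more cells of a type and more RNA per cell cannot be told apart, and this holds for each difference below.

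**Figure D1:**
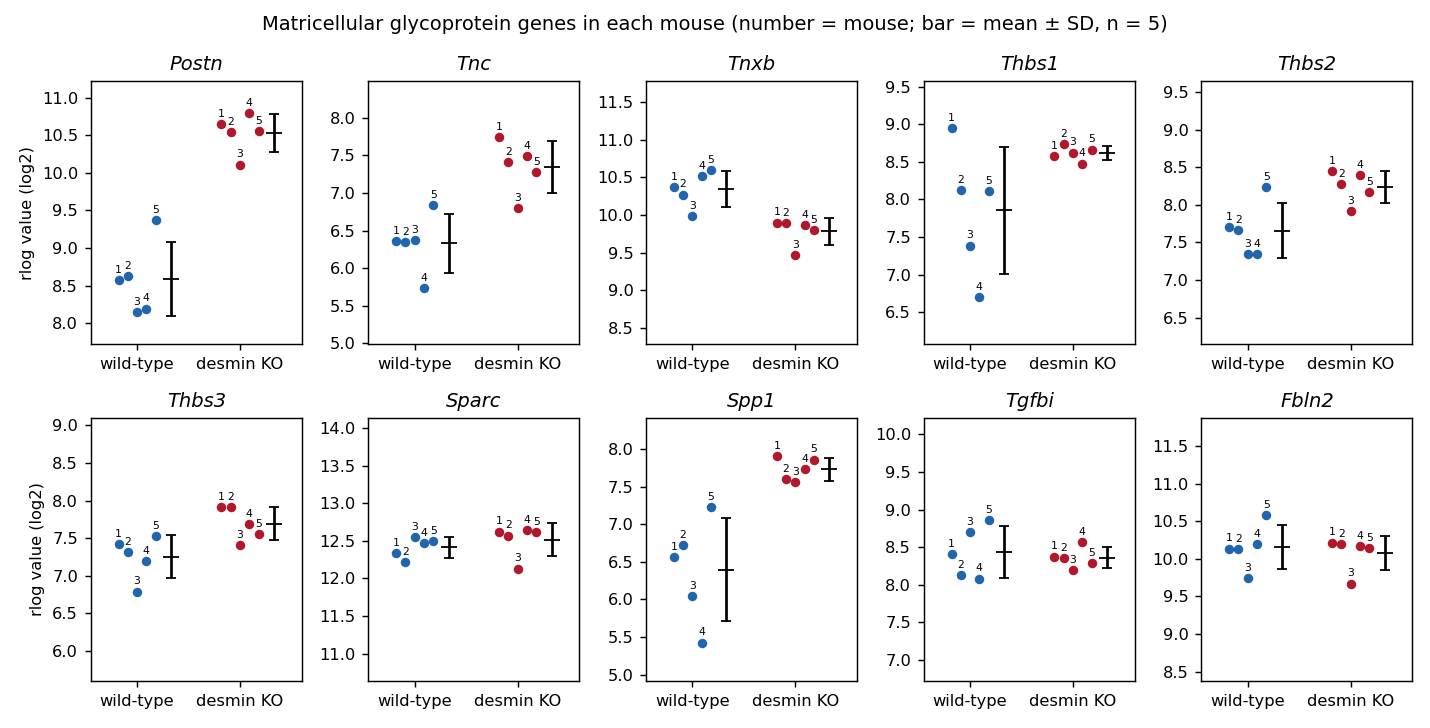
Deposited rlog value (log2 scale, vertical axis, each panel spanning the same number of log2 units) of the 10 genes in 5 wild-type mice (blue) and 5 desmin knock-out mice (red), with the mouse number beside each point and mean ± SD to its right. The knock-out points of Postn lie between 10.11 and 10.80, above all wild-type points, and those of Tnxb lie below all wild-type points.

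The 250 bases before the start site are shown for the 4 genes whose calls held in each alternative analysis, as the DNA next to which their transcripts begin. They are RefSeq windows on GRCm38.p6, given 5′ to 3′ on the strand of the gene, with motif matches in capitals. TGTCTG in Spp1 is CAGACA read on the opposite strand.
Postn (chr3:54360857-54361106, forward strand): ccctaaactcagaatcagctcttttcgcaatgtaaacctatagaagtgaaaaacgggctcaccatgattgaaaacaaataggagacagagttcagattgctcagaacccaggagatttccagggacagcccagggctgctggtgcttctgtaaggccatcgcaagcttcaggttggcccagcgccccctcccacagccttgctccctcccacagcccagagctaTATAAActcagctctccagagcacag
Spp1 (chr5:104434861-104435110, forward strand): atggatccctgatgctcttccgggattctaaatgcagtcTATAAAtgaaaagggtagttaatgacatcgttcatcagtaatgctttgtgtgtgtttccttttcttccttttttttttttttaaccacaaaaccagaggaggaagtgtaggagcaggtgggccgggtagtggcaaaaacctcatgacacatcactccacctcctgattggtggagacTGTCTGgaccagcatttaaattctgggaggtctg
Tnc (chr4:64047016-64047265, reverse strand): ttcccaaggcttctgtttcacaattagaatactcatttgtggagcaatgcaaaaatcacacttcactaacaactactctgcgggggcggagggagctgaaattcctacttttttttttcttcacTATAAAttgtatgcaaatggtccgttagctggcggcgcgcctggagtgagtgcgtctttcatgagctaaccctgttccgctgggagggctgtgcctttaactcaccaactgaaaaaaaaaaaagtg
Tnxb (chr17:34670285-34670534, forward strand): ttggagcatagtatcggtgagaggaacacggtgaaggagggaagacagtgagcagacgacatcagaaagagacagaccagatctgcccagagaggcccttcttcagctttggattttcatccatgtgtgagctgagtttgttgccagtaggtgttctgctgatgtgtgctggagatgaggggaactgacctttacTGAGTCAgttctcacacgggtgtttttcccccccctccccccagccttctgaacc
Both strands were searched for TATAAA (the TATA box), TGANTCA (AP-1 factors), GGAATG (TEAD factors), CAGACA (holding the short SMAD element) and the CArG box of serum response factor, and no match overlapped another. Windows were found for 9 of the 10 genes, Thbs1 being the exception. TATAAA was present in 4 of these 9, namely Postn, Tnc, Thbs2 and Spp1, and in 12.4% of all 32841 windows of the same length. Postn had it with its first base 26 bases before the start site, whereas in Tnc and Thbs2 it began 126 and in Spp1 211 bases before. The match in Thbs2 was on the opposite strand, where it reads TTTATA on the strand of the gene. CAGACA was found in 3 of 9 (Thbs2, Sparc and Spp1; 17.1% of all windows), and TGANTCA in Tnxb alone (6.75%). The RefSeq start of Sparc lies 3103 bases inside its GENCODE gene model. GGAATG (12.6%) and the CArG box (1.47%) had 0 matches in the 9 windows. A match is a description of letters and not of binding.

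Postn had the strongest rise. It encodes periostin, which binds collagen and fibronectin, promotes collagen cross-linking and signals through αv integrins. Postn (ENSMUSG00000027750) is transcribed from the forward strand of chromosome 3 (54361109 to 54391037, GRCm38, as for all positions below). Its rlog values were 8.57, 8.63, 8.15, 8.19 and 9.37 in wild-type mice 1 to 5 and 10.65, 10.54, 10.11, 10.80 and 10.56 in knock-out mice 1 to 5. The lowest knock-out mouse was thus well above wild-type mouse 5, which was the highest of its genotype. The log2 difference was 1.95 (95% interval 1.5 to 2.39, standard error 0.21, adjusted p = 3.0e-05 from limma), a 3.85-fold difference on the rlog scale. An exact permutation test of the 10 values, two-sided, gave p = 0.00794, the smallest p that 5 against 5 mice allow. Leaving out each mouse in turn kept the difference between 1.84 and 2.14.

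Spp1 encodes osteopontin, a phosphorylated glycoprotein with an integrin-binding RGD sequence that is secreted by macrophages and by injured muscle. The gene (ENSMUSG00000029304) is on the forward strand of chromosome 5 from 104435118 to 104441050. In wild-type mice 1 to 5 its rlog values were 6.56, 6.73, 6.04, 5.43 and 7.23. Knock-out mice 1 to 5 had 7.90, 7.60, 7.55, 7.73 and 7.86. The wild-type mice were spread widely, with mouse 4 lowest and mouse 5 highest, while the knock-out mice lay close together and above them all. Spp1 differed by 1.33 on the log2 scale (95% interval 0.78 to 1.89, standard error 0.26, adjusted p = 0.00356 from limma), or 2.52-fold. The difference was between 1.09 and 1.54 with each mouse left out. Spp1 shares 309 exon bases with Gm42793, which lies on the same strand and was at 0 in all mice. How reads in shared bases were counted is not given in the sources used here.

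Tenascins are large glycoproteins built from EGF-like and fibronectin-type repeats. Tnc, tenascin-C, is rare in resting muscle outside the ends of the fibers and appears on injury, whereas Tnxb, tenascin-X, is a constitutive tenascin of connective tissue that helps to space collagen fibrils. Tnc (ENSMUSG00000028364) lies on the reverse strand of chromosome 4 from 63959785 to 64047015. Its values were 6.36, 6.35, 6.37, 5.73 and 6.84 in wild-type mice 1 to 5 and 7.75, 7.41, 6.80, 7.49 and 7.27 in knock-out mice 1 to 5. Only knock-out mouse 3 reached into the wild-type range, just under wild-type mouse 5. The log2 difference was 1.01 (95% interval 0.58 to 1.45, standard error 0.20, adjusted p = 0.00431 from limma), 2.02-fold on the rlog scale.

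Tnxb (ENSMUSG00000033327), on the forward strand of chromosome 17 from 34670535 to 34719815, went the other way. Wild-type mice 1 to 5 had 10.37, 10.27, 9.98, 10.52 and 10.60. Knock-out mice 1 to 5 had 9.90, 9.89, 9.47, 9.86 and 9.80, each of them below the lowest wild-type value, that of mouse 3. Tnxb differed by -0.56 on the log2 scale (95% interval -0.83 to -0.29, standard error 0.13, adjusted p = 0.0088 from limma), and it was the single member that fell. The difference stayed between -0.65 and -0.48 when each mouse was left out in turn. Within a mouse, the value of Tnc minus that of Tnxb averaged -4.02 ± 0.46 in the wild-type and -2.44 ± 0.19 in the knock-out mice (SD, n = 5 each). The changes of both tenascins therefore differed by 1.58 on the log2 scale (95% interval 1.07 to 2.09; exact permutation test, two-sided, p = 0.00794, adjusted p = 0.0198 over 5 pairs of related genes). A difference within a mouse does not depend on the scaling of libraries, although rlog shrinks genes with few reads more than others.

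The thrombospondins are calcium-binding glycoproteins that assemble into trimers (Thbs1 and Thbs2) or pentamers (Thbs3). Thbs1 is known to activate latent TGF-β and to inhibit vessel growth through CD36 and CD47. Values of Thbs1 (ENSMUSG00000040152, chromosome 2, 118111876 to 118127133) were 8.94, 8.12, 7.39, 6.71 and 8.11 in wild-type mice 1 to 5 and 8.58, 8.74, 8.62, 8.48 and 8.66 in knock-out mice 1 to 5. The knock-out mice were nearly equal (SD 0.10), whereas the wild-type mice ranged over more than their distance from the knock-out mean (SD 0.85), with mouse 1 the highest of all 10 mice. Thbs1 did not pass, with a log2 difference of 0.76 (95% interval 0.11 to 1.42, standard error 0.31, adjusted p = 0.121 from limma). Without wild-type mouse 1 it was 1.04 with an adjusted p of 0.0137 (limma), so that 1 library decides the call, and with sample weights the difference was 0.27.

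Thbs2 (ENSMUSG00000023885, chromosome 17, 14665500 to 14694235), which shares the trimeric form and is needed for normal collagen fibrils, had 7.70, 7.66, 7.34, 7.34 and 8.23 in wild-type mice 1 to 5. In knock-out mice 1 to 5 it had 8.45, 8.28, 7.91, 8.39 and 8.16. Knock-out mice 3 and 5 overlapped with wild-type mouse 5, and the other 3 knock-out mice were above all wild-type mice. The log2 difference was 0.58 (95% interval 0.22 to 0.94, standard error 0.17, adjusted p = 0.0342 from limma). This call was narrow. It was lost without knock-out mouse 1, 2, 4 or 5 or without wild-type mouse 1, 2 or 4 (adjusted p 0.0503 to 0.089 from limma), while the difference remained at 0.50 or more, and it was lost with no limit on expression (adjusted p = 0.0846).

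Thbs3 (ENSMUSG00000028047, chromosome 3, 89215180 to 89226837) had a mean of 7.25 ± 0.29 (SD, n = 5) in wild-type mice and of 7.69 ± 0.22 (SD, n = 5) in knock-out mice, 4 of which were above all wild-type mice. Its log2 difference of 0.44 (95% interval 0.12 to 0.77, adjusted p = 0.0716 from limma) missed the threshold, and passed it without wild-type mouse 5 (0.51, adjusted p = 0.0476). Thbs3 shares 318 exon bases with Mtx1 on the opposite strand, which had a log2 difference of 0.0069. How strand was used in counting is not given in the sources used here. Opposite-strand genes also share exon bases with Thbs1 (Gm29233, 208), Tnc (8030451A03Rik, 176) and Tnxb (Cyp21a2-ps, 3). These genes lay below the limit for testing. The changes of Thbs1, Thbs2 and Thbs3 could not be told apart from each other. They differed by 0.18 for Thbs1 and Thbs2 (95% interval -0.59 to 0.95), by 0.32 for Thbs1 and Thbs3 (-0.46 to 1.10) and by 0.14 for Thbs2 and Thbs3 (-0.12 to 0.40), with exact permutation adjusted p values of 0.579, 0.536 and 0.423.

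Sparc, Tgfbi and Fbln2 showed differences close to 0. Sparc (ENSMUSG00000018593, chromosome 11, 55394500 to 55423183) encodes osteonectin, a collagen-binding glycoprotein that assists fibril assembly. Its wild-type values ran from 12.21 to 12.55, and 4 of the 5 knock-out mice had between 12.57 and 12.64, above all of them, while knock-out mouse 3 had 12.13, the lowest of the 10 mice. The log2 difference of Sparc was 0.10 (95% interval -0.14 to 0.35, adjusted p = 0.593 from limma). It was 0.20 without knock-out mouse 3 (adjusted p = 0.233) and 0.26 with sample weights, which is past the threshold (adjusted p = 0.03).

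Tgfbi (ENSMUSG00000035493, chromosome 13, 56609523 to 56639562) encodes a TGF-β-induced protein built from the same kind of fasciclin repeats as periostin. Its values were 8.19 to 8.57 in knock-out and 8.08 to 8.86 in wild-type mice, so that the former lay within the range of the latter. Tgfbi differed by -0.08 on the log2 scale (95% interval -0.40 to 0.24). Periostin and its relative thus changed unequally. Postn minus Tgfbi averaged 0.15 ± 0.43 in the wild-type and 2.17 ± 0.15 in the knock-out mice (SD, n = 5 each), a difference of 2.03 between their changes (95% interval 1.55 to 2.5; exact permutation test, two-sided, p = 0.00794, adjusted p = 0.0198). Fbln2 (ENSMUSG00000064080, chromosome 6, 91212455 to 91272540) encodes fibulin-2, which bridges fibronectin, fibrillin and basement membranes. Its values were 9.67 to 10.21 in knock-out and 9.74 to 10.58 in wild-type mice, and the log2 difference was -0.08 (95% interval -0.40 to 0.24). The sign of the Tgfbi and Fbln2 differences turned with single mice left out, so no direction is given for them.

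**Figure D2:**
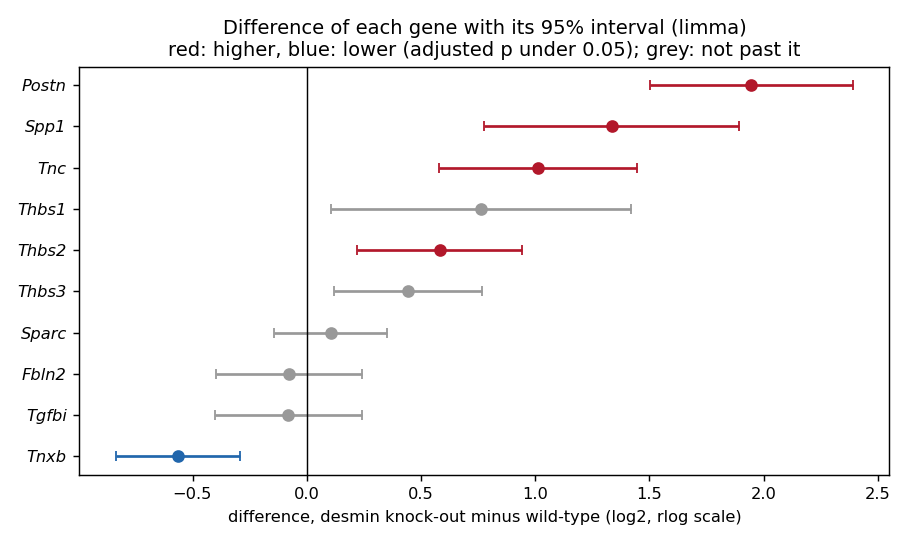
Difference between desmin knock-out and wild-type muscle (log2, rlog scale, horizontal axis) for the 10 genes, with 95% intervals from limma. Postn stands at 1.95 and Tnxb at -0.56, and the intervals of Sparc, Fbln2 and Tgfbi include 0.

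Levels were compared between genes after division by the exon length of each gene. Sparc was by far the most abundant of the 10, with 10.49 (log2 level per kb of exon) in wild-type and 10.60 in knock-out muscle. In wild-type muscle Fbln2 (7.49), Tnxb (6.74), Tgfbi (6.52), Spp1 (5.67), Postn (5.46), Thbs1 (5.25), Thbs3 (4.98), Thbs2 (4.85) and Tnc (3.37) followed. The mice overlapped between each pair of neighbours from Tnxb down to Thbs2. Postn was the sixth gene of this order in wild-type and the second in knock-out muscle, where its level (7.41) equaled that of Fbln2 (7.41). Tnxb was the third gene in wild-type and the sixth in knock-out muscle (6.17), where its mice overlapped with those of both neighbours, Tgfbi and Thbs1. Those of Fbln2 overlapped with Postn and with Spp1 there, and those of Thbs2 with Thbs3. Tnc was last in both (4.39 in knock-out muscle) and did not overlap with its neighbour. Exon lengths are those of all annotated exons together, so the level of a gene with many rarely used exons is understated.

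**Figure D3:**
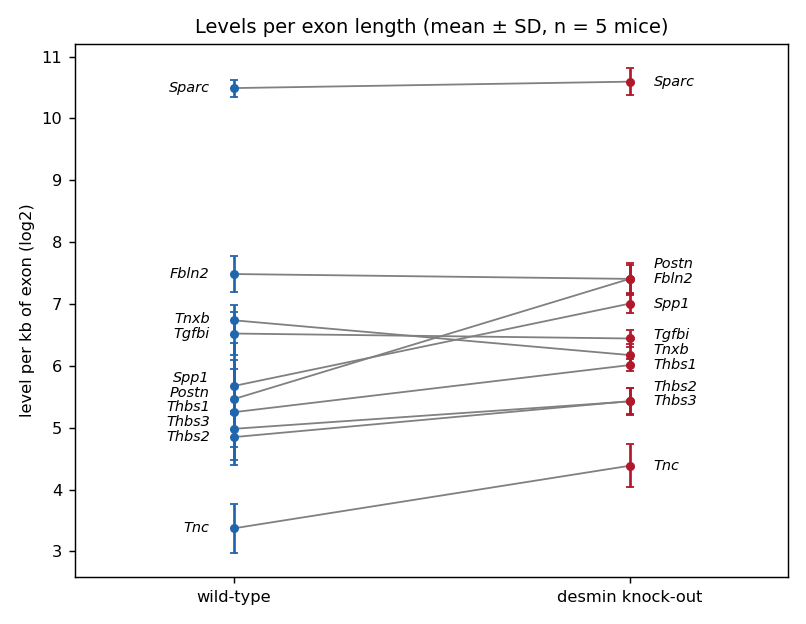
Level per kb of exon (log2, vertical axis) of the 10 genes in wild-type (left) and desmin knock-out muscle (right), as mean ± SD of 5 mice, with a line joining each gene. Postn climbs from 5.46 to 7.41, Tnxb declines from 6.74 to 6.17 and Sparc stays on top.

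The mice of a genotype differed from each other in a shared way. Knock-out mouse 3 had the lowest knock-out value in 9 of the 10 genes, while it was the lowest in 22.1% of all tested genes. Wild-type mouse 5 had the highest wild-type value in 8 of the 10 genes, compared with 18.7% of tested genes. Wild-type mouse 3 or 4 was lowest of its genotype in 9 of the 10 genes (32.5% and 22.5% of tested genes, respectively). Markers of fibroblasts moved with this: the summed level of 12 fibroblast markers (2 to the power of the rlog value) was highest of all mice in wild-type mouse 5 (42969), lowest among knock-out mice in mouse 3 (29653) and lowest of all in wild-type mouse 3 (22297). Gsn and Dcn made up 59.7% to 74.6% of this sum. Marker by marker, 11 of the 12 were lowest of the knock-out mice in mouse 3 and 10 were highest of the wild-type mice in mouse 5, but only 5 were lowest in wild-type mouse 3. Fibroblast markers were not alone in this. The summed levels of tendon, endothelial and Schwann cell markers were also lowest of the knock-out mice in mouse 3. All 3 were highest of the wild-type mice in mouse 5, and smooth muscle and pericyte markers showed both patterns. Macrophage markers were lowest of the knock-out mice in mouse 3 and lowest of all mice in wild-type mouse 3. They were not highest in wild-type mouse 5. Erythroid markers were lowest of the knock-out mice in mouse 3, but lowest of the wild-type mice in mouse 5. Of 10 tendon markers, 4 were lowest in knock-out mouse 3 and 8 were highest in wild-type mouse 5. The part of any cell type in the spread was not tested. Without knock-out mouse 3 the log2 differences were 2.05 for Postn, 1.38 for Spp1, 1.15 for Tnc and -0.48 for Tnxb. Leaving out wild-type mouse 5 gave 2.14, 1.54, 1.14 and -0.50 for the same genes, and all of these values had an adjusted p under 0.05 (limma). With wild-type mouse 3 left out, the 4 genes differed by 1.84, 1.24, 1.02 and -0.65, also with an adjusted p under 0.05, and Thbs2 differed by 0.50 (adjusted p = 0.0488).

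**Figure D4:**
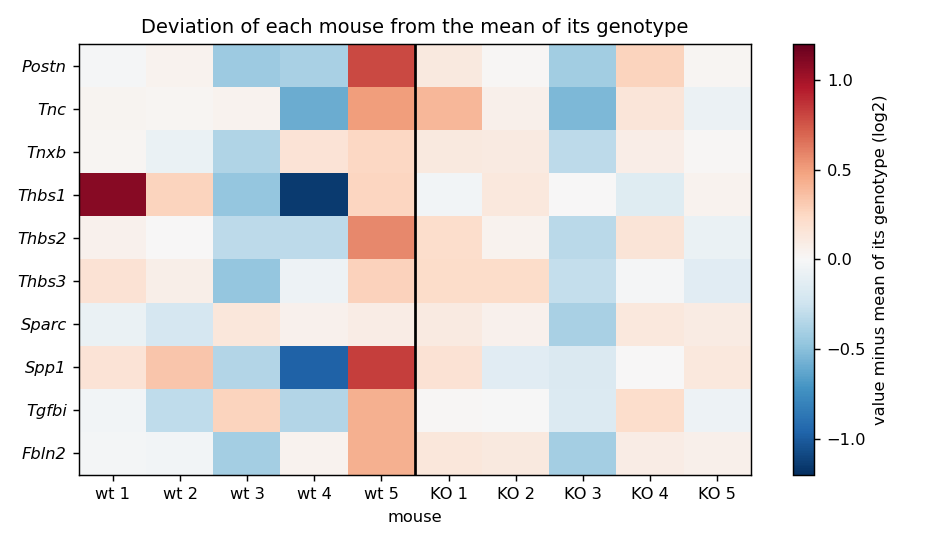
Value of each mouse minus the mean of its genotype (log2, color) for the 10 genes in 5 wild-type (wt) and 5 knock-out (KO) mice. Wild-type mouse 5 is above its mean in all 10 rows and knock-out mouse 3 is below or near its mean, and the strongest colors belong to Thbs1 in wild-type mice 1 and 4.

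Cell types known to make these proteins were followed through marker lists. Of 12 fibroblast markers, 2 rose (Lum and Mfap5), 1 fell (Ly6a) and 9 did not pass, with a median log2 difference of 0.02 and with Pdgfra at 0.08. Their summed level was 29653 to 39299 in knock-out and 22297 to 42969 in wild-type mice. Of 10 tendon markers, 6 rose (Col11a1, Tnmd, Cilp2, Scx, Prg4 and Col22a1) and none fell, with a median of 0.56. The 4 others did not pass, namely Mkx (0.46), Fmod (0.40), Kera (-0.034) and Chad (-0.15). The tendon genes Scx, a transcription factor, and Tnmd, tenomodulin, differed by 0.77 and 1.51 on the log2 scale. The summed level of the list was 3580 to 4855 in knock-out and 2103 to 4381 in wild-type mice. Fmod and Col22a1 made up 58.9% to 70.8% of this sum. Tendon also expresses Tnc, Postn and the thrombospondins, and the part of tendon tissue in their rise was not tested. Of 12 macrophage markers, Gpnmb rose (0.56) and 11 did not pass, among them Adgre1 (0.08) and Cd68 (0.21), and their summed level was 2579 to 3566 in knock-out and 2495 to 3235 in wild-type mice. Genes of newly formed fibers rose in 7 of 10 cases, such as Myh3 (2.25) and Myog (1.23), while Myod1 and Actc1 fell and 1 did not pass. Their summed level was 5177 to 8274 in knock-out and 4326 to 8696 in wild-type mice. Actc1, which fell, had the highest level of this list (12.03 in wild-type mice). For the counts of these lists, 7.70% of all tested genes were called higher and 5.99% lower. No gene of these 4 lists was at 0 in all mice.

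Further matricellular proteins and close relatives of the 10 genes were read as a list of 23 genes, of which 19 were tested. Of these, 8 rose, 0 fell and 11 did not pass (limma; 8 and 0 compare with 7.70% and 5.99% of tested genes), with a median log2 difference of 0.28. Spock2, a testican and thus a proteoglycan of the Sparc family, had the strongest change, from 8.19 ± 0.15 to 9.75 ± 0.17 (SD, n = 5 each), which is a rise of 1.56 on the log2 scale (standard error 0.11, adjusted p = 9.6e-07). Its sister Spock3 rose by 0.60. Thbs4 and Comp, the other pentameric thrombospondins, rose by 0.96 (adjusted p = 0.00143) and 0.87 (adjusted p = 0.00891). Of the 5 thrombospondin genes, Thbs2, Thbs4 and Comp were therefore called and Thbs1 and Thbs3 were not.

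In the CCN family of growth-factor-binding matricellular proteins, Ccn2 (connective tissue growth factor) rose by 1.01 (adjusted p = 0.00497) and Ccn4 by 0.89 (adjusted p = 0.00186). Ccn1, with a log2 difference of 0.54 (adjusted p = 0.123), did not pass, nor did Ccn3 and Ccn5. In the fibulin group Fbln7 rose by 0.85 (adjusted p = 8.4e-04, limma) and Hmcn1 by 0.43 (adjusted p = 0.0446, but 0.0848 with median centring and 0.103 with quantile normalization), whereas Fbln1, Fbln5, Efemp1 and Efemp2 did not pass, with log2 differences between -0.32 and 0.11. The Sparc relatives Sparcl1 (0.21), Smoc1 (0.10) and Smoc2 (-0.0079) did not pass either.

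Receptors that bind these proteins formed a list of 24 genes, with 22 tested, 6 higher, 1 lower and 15 that did not pass. The median log2 difference was 0.21. The 6 and 1 compare with 7.70% of all tested genes called higher and 5.99% called lower. Itga9, the α9 integrin that binds tenascin-C and osteopontin, went from 7.78 ± 0.12 to 8.65 ± 0.11 (SD, n = 5 each), a rise of 0.87 (standard error 0.10, adjusted p = 5.7e-05 from limma). Cd44, which binds hyaluronan and osteopontin, rose by 1.11 (adjusted p = 4.8e-04). The αv integrin gene Itgav (0.98) and its partners Itgb6 (1.14) and Itgb8 (0.53, adjusted p = 0.0498) were called higher as well, as did the fibronectin receptor gene Itga5 (0.50). The αv partners Itgb1, Itgb5 and Itgb3 did not pass, with log2 differences of 0.29, -0.34 and -0.17, nor did the thrombospondin receptors Cd36 (0.037) and Cd47 (0.25). Several of these calls turned on wild-type mouse 3. Without it Itgb8 lost its call (adjusted p = 0.0777), while Itgb1 (0.29, adjusted p = 0.0252), Itgb5 (-0.24, adjusted p = 0.0238) and Cd47 (0.27, adjusted p = 0.029) passed, so no contrast is drawn between the partners. Itgb8 also lost its call with median centring and quantile normalization (adjusted p = 0.0611 and 0.0684). Stab2, a scavenger receptor of sinusoidal endothelium, fell by 1.38 (adjusted p = 2.5e-04, limma), beside 5 of 10 endothelial markers that fell and 0 that rose.

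Structural partners of the 10 genes, mainly collagens and their processing enzymes, were read in the same way, Dcn being also a fibroblast marker. Of 19 tested genes, 6 rose, 0 fell and 13 did not pass, with a median of 0.27. The 6 and 0 compare with 7.70% of all tested genes called higher and 5.99% called lower. Col12a1, a collagen found on the surface of fibrils, rose by 1.53 (adjusted p = 3.1e-04), Lox, the collagen cross-linking enzyme, by 0.90 (adjusted p = 0.00751), and Fn1, fibronectin, by 0.52 (adjusted p = 0.0169). The fibrillar collagen genes Col1a2 (0.64), Col1a1 (0.50) and Col3a1 (0.52) rose, the last 2 narrowly (adjusted p = 0.0437 and 0.0447). Col5a1, Col6a1, Col6a2, Col14a1, Bmp1 and Fbn1 had differences between -0.18 and 0.10 and did not pass. Larger differences that did not pass were those of Col5a2 (0.55, adjusted p = 0.0934), Bgn (0.44, adjusted p = 0.0604), Dcn (0.40) and Col6a3 (0.27) (limma). The difference of Col5a2 was thus as large as those of the called genes Col1a1 and Col3a1. The number that rose was 3 without knock-out mouse 2 and 4 after median centring of the mice, where Col1a1 (adjusted p = 0.0614) and Col3a1 (adjusted p = 0.0583) lost their calls. Without wild-type mouse 3, Col3a1 lost its call (adjusted p = 0.0582) and Bgn gained one (adjusted p = 0.0114).

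The TGF-β pathway, for which several of these genes are known targets or partners, was mixed in direction. Of 20 genes, 4 rose, 3 fell and 13 did not pass, with a median of 0.16. The 4 and 3 compare with 7.70% of all tested genes called higher and 5.99% called lower. The ligand gene Tgfb2 rose by 0.58 (adjusted p = 0.00488). Ltbp1, which tethers latent TGF-β to the matrix, rose by 0.56 and its relative Ltbp2 by 1.31. The transducer gene Smad3 fell by 0.68, the co-receptor gene Eng by 0.80 and Lrrc32, which anchors latent TGF-β on cells, by 0.63. Eng is also an endothelial gene, and the summed level of 10 endothelial markers was 5609 to 7133 in knock-out and 7237 to 8845 in wild-type mice. Their part in the fall of Eng and Stab2 was not tested. Tgfb1 (0.19), Tgfbr1 (0.25) and Tgfbr2 (0.21) did not pass. Tgfb3 narrowly missed the threshold (0.44, adjusted p = 0.0503) and passed it without wild-type mouse 3 (0.58, adjusted p = 1.5e-04), with quantile normalization (adjusted p = 0.019) and with sample weights (adjusted p = 1.6e-05).

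**Figure D5:**
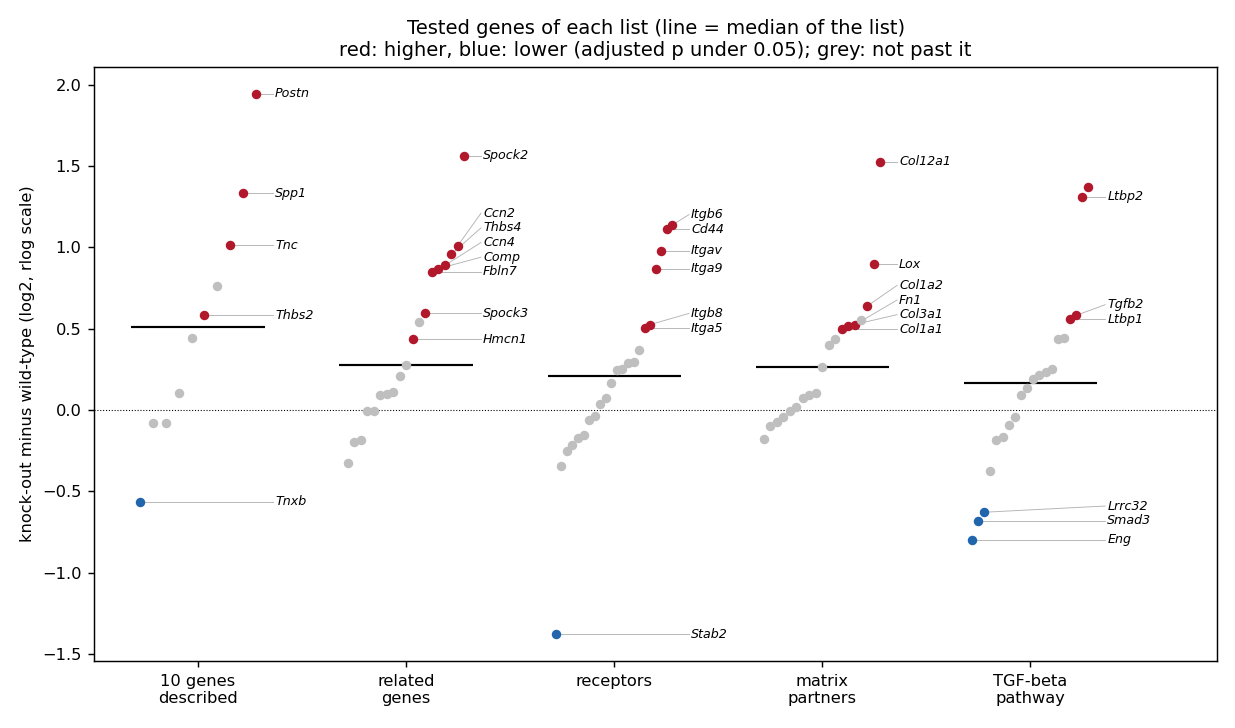
Difference between desmin knock-out and wild-type muscle (log2, rlog scale, vertical axis) of each tested gene in 5 lists, with lines at the medians (0.51, 0.28, 0.21, 0.27 and 0.16 from left to right). Colored points passed an adjusted p under 0.05, red for higher and blue for lower, and all but 1 of them are named, while grey points did not pass.

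Genes whose values followed those of Postn from mouse to mouse were sought after subtraction of the mean of each genotype, over the 10 mice and all tested genes. Outside the 10 genes, the highest Pearson correlations belonged to Ctsk (0.967), Dio2 (0.967), Adap2 (0.964), Itih5 (0.954) and Gpc4 (0.951). They are given as a measure of likeness, with no test, and without wild-type mouse 3 they were between 0.940 and 0.963. Ctsk, a collagen-degrading cysteine protease, and Dio2, a deiodinase that activates thyroid hormone, were themselves higher in knock-out muscle, by 0.94 (adjusted p = 0.0153) and 1.10 (adjusted p = 0.00208). Adap2, Itih5 and Gpc4 did not differ past the threshold, with log2 differences of -0.44, 0.36 and 0.33.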

How the data were processed

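The authors deposited 1 table of log2-scale values, made with the rlog function of DESeq2, for 5 desmin knock-out and 5 wild-type mice. Per the labels, reads were trimmed with cutadapt 2.5, aligned with STAR 2.5.4a to GRCm38 and counted per gene with featureCounts (Subread 1.6.1), before DESeq2. Counts were not used, so depth and counting error are unknown, and the shrinkage of rlog cannot be undone. The labels do not name separate cages, sexes or batches.

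The limit for testing was a mean of log2(10) across all mice. Genotypes were compared with limma 3.58.1 under R 4.3.3 (lmFit, eBayes with a variance trend, two-sided, Benjamini-Hochberg adjustment over 14289 genes; adjusted p under 0.05). Intervals for pairs of genes use the pooled variance of the 2 genotypes. Single values and 5 pairs of related genes were tested with exact permutation tests (scipy 1.17.1). Symbols, positions and exon lengths came from GENCODE M21 (GRCm38), promoters from RefSeq (GRCm38.p6). The fit was tested on simulated data. Lists were described by counts and medians, without a set test.

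The members, lists and tests were chosen with earlier results of these data known. Named in the text are the 10 members, Des, up to 8 called genes of each pathway list and genes sharing exon bases with a member. The 5 genes most like the member with the smallest adjusted p are also named. Listed genes that did not pass, and markers, were named after their values were seen. One gene of the TGF-β list is counted but not reported by name here. Alternatives were sample weights, median centring, quantile normalization, the replicate number as a block, a prior variance without trend, no limit or one of log2(50), an adjusted p under 0.01, and leaving out each mouse.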

Additional observations from a re-analysis of the deposited data

Results flagged for a closer look

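In 20 groups of 5 mice (10 genes in 2 genotypes), 3 held a mouse whose distance to the nearest other mouse was above 0.71 of the range of its group (Dixon's 95% critical value for 5 mice), where chance gives about 1. All 3 concerned knock-out mouse 3, the lowest of its genotype for Tnxb (9.47), Sparc (12.13) and Fbln2 (9.67). Without this mouse the log2 difference was -0.48 for Tnxb (adjusted p = 0.0244 from limma), 0.20 for Sparc (adjusted p = 0.233) and 0.023 for Fbln2 (adjusted p = 0.938).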

How the results depend on the processing

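Of 441 values recomputed for 27 results, 412 kept their direction and side of the threshold or lay within 1.5 times the count. Postn, Spp1, Tnc and Tnxb kept their calls in all 17 alternatives run for them, with adjusted p up to 4.97e-04, 0.0188, 0.0186 and 0.0259 (limma). Thbs2 (0.58) lost its call with no limit on expression and without 7 of the 10 mice, with differences from 0.50 to 0.73 as each mouse was left out. Thbs1 was between 0.48 and 1.04 and Thbs3 between 0.33 and 0.52 in the same runs. Sample weights were 0.10 and 0.27 for wild-type mice 3 and 4, and 4.21 and 3.22 for knock-out mice 4 and 5. With these weights, Thbs3 (0.29) and Sparc (0.26) passed the threshold and Tgfbi turned (0.063). Tgfbi ranged from -0.17 to 0.026 and turned without wild-type mouse 5 (0.026). Fbln2 ranged from -0.18 to 0.027 and turned without wild-type mouse 5 (0.027) or knock-out mouse 3 (0.023). Thbs1 minus Thbs2 ranged from -0.028 to 0.44 and turned without wild-type mouse 4 (-0.028). The causes were not tested.

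Sample weights gave 2093 higher and 2127 lower genes in all, 7 higher and 5 lower TGF-β genes and 4 lower receptors. An adjusted p under 0.01 gave 623 higher and 371 lower genes and 3 higher matrix partners. Leaving out single mice gave 560 to 1159 lower genes in all (560 without knock-out mouse 5), 1 to 2 lower receptors (2 without wild-type mouse 3 or 4) and 3 to 7 higher matrix partners (3 without knock-out mouse 2). Median centring gave 942 higher and 979 lower genes, against 1100 and 856. No called gene of the 5 lists turned direction with median centring, quantile normalization, sample weights or without wild-type mouse 3. Calls were lost for Hmcn1, Itgb8, Col1a1 and Col3a1 with median centring (7 of 8 relatives, 6 of 7 receptors and 4 of 6 matrix partners stayed called), for Hmcn1 and Itgb8 with quantile normalization, and for Itgb8 and Col3a1 without wild-type mouse 3.

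The replicate numbers did not pair the mice. Deviations of same-numbered mice correlated between -0.22 and 0.067, and 0 of 5 knock-out mice were closest to their own number. With the replicate block, 913 genes were higher and 666 lower, with 4 and 1 of the 10 genes among them.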

Other observations

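Markers of the remaining cell types were read in the same way (limma, adjusted p under 0.05, passed by 13.7% of all tested genes). Endothelial markers had a median log2 difference of -0.38, with 5 of 10 lower (Flt1, Cdh5, Pecam1, Tie1 and Tek) and 0 higher. Of 10 smooth muscle and pericyte markers, Cspg4 was higher (1.02) and Kcnj8 lower (-0.53). The Schwann cell genes Egr2 (1.02) and Erbb3 (0.74) were higher, while 8 others of their list of 10 did not pass. In this list and in that of smooth muscle and pericytes 20% were called, near the 13.7% of all tested genes. Of 8 adipocyte markers, Adig was lower (-0.91) and 7 did not pass, so that 12.5% were called. Of 5 tested erythroid markers, Alas2 (-1.0) and Hbb-bs (-0.74) were lower and 3 did not pass. Actn3 (-0.97) and Myh4 (-0.71), genes of fast fibers, were lower among 10 skeletal muscle markers. The 8 others did not pass, so that 20% of this list were called. Myh1 (0.58, adjusted p = 0.132 from limma) and Mb (0.32) had differences in the other direction. Wild-type mouse 3 had the highest summed level of all mice for skeletal muscle markers and for erythroid markers. None of the cell type marker lists was refitted without this mouse.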
